A study of Mus musculus with 4 samples.

Results

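Interstitial mesenchymal cells are the fibroblast-like cells that lie between the seminiferous tubules of the testis. In the data they were chosen by the UMI they held for marker genes, and 129 of 32273 barcodes passed this gate. A barcode entered when at least 500 genes were detected, at most 10% of its unique molecular identifiers (UMI) were mitochondrial, and UMI were present for at least 3 of Dcn, Pdgfra, Tcf21, Lum and Col1a1. It was left out when it held 3 or more of the smooth muscle genes Acta2, Myh11, Myl9, Tagln, Des and Cnn1. It was also left out when 6 Leydig cell genes, Cyp17a1, Cyp11a1, Star, Hsd3b1, Hsd3b6 and Insl3, reached 1% of its UMI, or when the spermatid RNAs Tnp1, Tnp2, Prm1 and Prm2 reached 10%.

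The suspension came from testes of C57BL/6 mice at postnatal day 63 and was captured in droplets for single-cell sequencing of the 3′ ends of transcripts. There were 2 Phf7 tKO samples, of the genotype Stra8-Cre:Phf7 f/f, and 2 Phf7 f/f samples, whose floxed alleles the tKO samples carry too. Stra8-Cre drives deletion in the germ line, so the mesenchymal cells are not the cells in which Phf7 is targeted. The barcodes carry suffixes 1 to 4, which mark 4 libraries, and no label ties a suffix to a sample, so the genotypes were not compared and the matrix was treated as 1 pooled sample. Whether the samples are separate animals is not stated. No p-value is given: intervals are at 95%, cover counting error only, and suffixes are not replicates.

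Mesenchymal cells of the testis interstitium lay down collagen and proteoglycan around the tubules, the vessels and the Leydig cells, and some of them are held to be stem or progenitor cells of the steroid-making Leydig lineage. Dcn encodes decorin, a small proteoglycan that coats collagen fibrils, and Lum encodes its relative lumican. Col1a1 encodes a chain of type I collagen, Pdgfra the receptor for platelet-derived growth factors A and C, and Tcf21 a basic helix-loop-helix transcription factor of mesenchyme. Proteins of this family bind short palindromic sites called E-boxes, of which CAGCTG is one form.

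The promoters of 3 genes that stood high in the gate are shown because they hold that letter string. Each is the stretch of 250 bases before a RefSeq transcription start on GRCm38.p6, written 5′ to 3′ on the gene's strand, with CAGCTG in capitals. Gsn encodes gelsolin, which severs actin filaments, Htra3 a secreted serine protease, and Igf1 insulin-like growth factor 1. The string lies 53 bases before the start in Gsn (chr2:35256109-35256358, plus strand), 123 bases before it in Htra3 (chr5:35679781-35680030, minus strand) and 157 bases before it in Igf1 (chr10:87860861-87861110, plus strand).
Gsn: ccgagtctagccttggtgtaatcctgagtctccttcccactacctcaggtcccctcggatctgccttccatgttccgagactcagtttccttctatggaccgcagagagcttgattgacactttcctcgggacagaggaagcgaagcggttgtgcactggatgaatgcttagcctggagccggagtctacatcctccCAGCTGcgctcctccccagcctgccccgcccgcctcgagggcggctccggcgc
Htra3: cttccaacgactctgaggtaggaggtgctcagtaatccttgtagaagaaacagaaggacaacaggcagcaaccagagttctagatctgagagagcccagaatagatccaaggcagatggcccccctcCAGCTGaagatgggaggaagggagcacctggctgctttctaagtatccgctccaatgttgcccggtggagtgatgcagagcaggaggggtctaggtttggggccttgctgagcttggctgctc
Igf1: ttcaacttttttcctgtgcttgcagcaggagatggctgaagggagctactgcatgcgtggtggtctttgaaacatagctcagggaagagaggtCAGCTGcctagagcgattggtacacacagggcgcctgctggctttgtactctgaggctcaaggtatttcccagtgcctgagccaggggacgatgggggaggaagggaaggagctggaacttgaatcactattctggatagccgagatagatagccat

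CAGCTG reads the same on both strands. It was present in 16 of 93 promoters, or 17.2%, belonging to 71 of the 94 genes called higher in the mesenchymal gate than in all 3 comparison classes described below. It was present in 4271 of 32851 RefSeq promoters of the same length, or 13%. Gsn has 2 further starts in the table, of which 1 holds the string 216 bases before it and 1 does not. The promoters of Pdgfra, Tcf21, Entpd2, Gpx3 and Serpinf1 did not hold it. A match describes the letters in this window and not binding by any factor.

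The gate held 25, 22, 38 and 44 barcodes of suffixes 1, 2, 3 and 4. These were 0.326%, 0.316%, 0.513% and 0.554% of the kept barcodes of each library, which passed the gene and mitochondrial limits, and 0.430% of all 29968 kept barcodes (exact Clopper-Pearson interval 0.360 to 0.511%). The median depth was 2619 UMI per barcode (range 852 to 6581) with 1497 genes, and the gate summed to 346477 UMI. Levels below are UMI scaled to the total of the class (CPM, counts per 1000000). Since the assay counts transcript ends, they are not scaled by gene length. No barcode sequence occurred in the gate in more than 1 library, although 5 of the gate's sequences also occurred in another library outside it.

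Spermatid RNA was present in every barcode of the gate, and 3 barcodes of suffix 1 held much of it. The 4 spermatid RNAs made up 2.58% of UMI in suffix 1 and 0.907%, 0.819% and 0.887% in suffixes 2, 3 and 4. In suffix 1, 3 of 25 barcodes held 1204 of the 1808 such UMI, at 6.54% to 7.76% of their own total, below the 10% limit of the gate. The other 22 barcodes stood at 1.13%, a value chosen after seeing the data. Markers of macrophages, lymphocytes, Schwann cells and vessels were scarce, and Leydig cell genes less so. All 12 macrophage markers together gave 28.9 CPM (0 to 49.0 by suffix, 5 of 12 with a UMI), and 120 of 129 barcodes had none. The 12 endothelial markers gave 113 CPM (51.9 to 196, 7 of 12 with a UMI), with Kdr, Tek and Emcn at 0 UMI. The 8 pericyte markers gave 26.0 CPM (16.3 to 57.2, 2 of 8 with a UMI), with Rgs5 at 0. The 10 lymphocyte and 7 Schwann cell markers gave 8.66 and 57.7 CPM, with 3 and 2 members detected, and the 9 mesothelial and rete markers gave 54.8 CPM. The Schwann cell sum, absent from 110 of 129 barcodes, was higher than in the 3 comparison classes described below. These had 3.95 (smooth muscle-gated), 7.51 (Leydig-gated) and 14.6 CPM (endothelial-gated). The 12 Sertoli cell markers gave 825 CPM (665 to 972, 9 of 12 with a UMI), and 14 barcodes held 3 or more of them. The 10 further Leydig cell genes summed to 1149 CPM in the gate (769 to 1574 by suffix), against 22880 CPM in Leydig-gated barcodes. Of the 129 barcodes, 23 held 3 or more of them and 26 held none.

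The values that chose the gate were as follows and carry no test. Dcn (chr10:97479609-97518143, plus strand, GENCODE M21 on GRCm38) reached 9285 CPM and was found in 128 of 129 barcodes. By suffix it stood at 8934, 8945, 11180 and 8157 CPM. Col1a1 (chr11:94936224-94953042) had 528 CPM, Pdgfra (chr5:75152292-75198215) 424 CPM and Tcf21 (chr10:22817281-22820174, minus strand) 413 CPM, while Lum (chr10:97565128-97572703) had 83.7 CPM from 29 UMI in 19 barcodes. Exactly 3 of the 5 genes were seen in 87 barcodes, 4 in 40 and all 5 in 2, so most members sat at the threshold.

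Just outside the gate lay 106 barcodes with exactly 2 of the 5 genes that met its other limits. Those with exactly 3 had 9273 CPM of Dcn, 1323 CPM of Col1a2 and 6271 CPM of Gsn, against 4188, 454 and 2393 CPM in those with exactly 2. Dcn is itself 1 of the 5 genes that sorted these barcodes, so a difference in its level was partly built in. Median depths were 2416 and 2400 UMI. Of the 147 barcodes with 3 or more of the 5 genes, 13 were turned away for smooth muscle genes, 3 for Leydig cell genes, 1 for spermatid RNA and 1 for gene number or mitochondrial share. Among those that stayed, Acta2 had 2 UMI and Myh11, Tagln and Cnn1 had 0, while Myl9 stood at 205 and Des at 133 CPM.

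**Figure D1:**
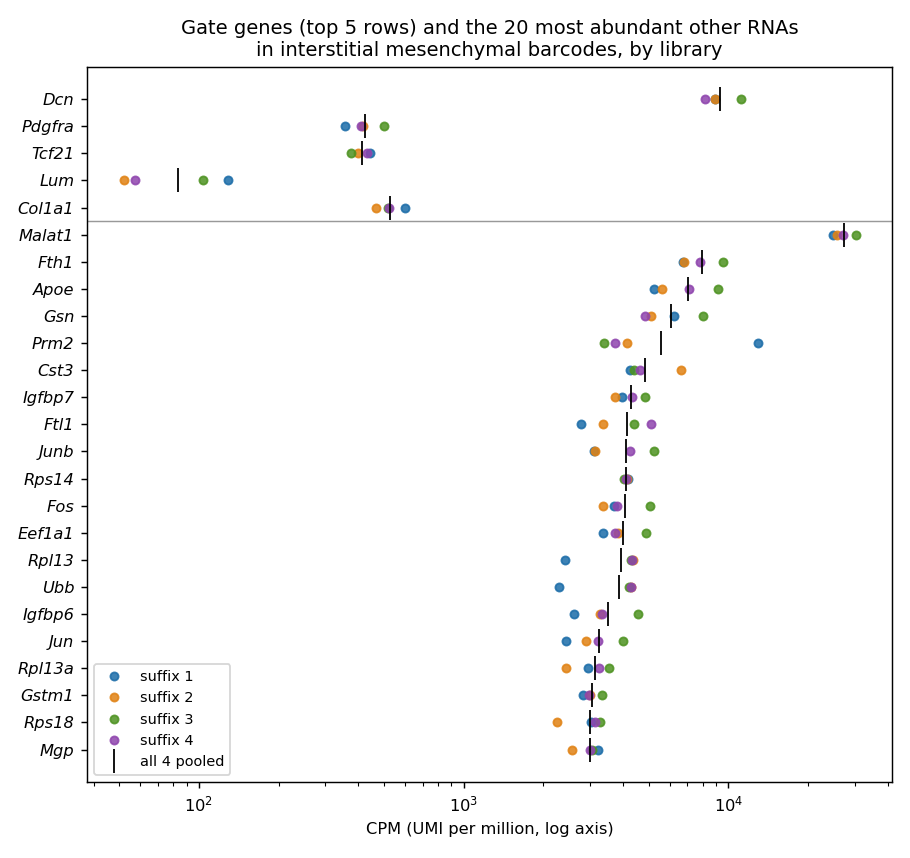
Levels in CPM (log axis) of the 5 gate genes and the 20 most abundant other RNAs without mitochondrial ones, with 1 point per library suffix and a bar for the 4 libraries pooled. Most points of a gene lie close together, and Prm2 in suffix 1, at 12994 CPM, stands to the right of the other 3 libraries.

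Outside the gate genes and mitochondrial RNAs, the most abundant RNAs were Malat1, a nuclear non-coding RNA, at 27266 CPM, Fth1, the ferritin heavy chain, at 7923 CPM, and Apoe, a lipid carrier, at 7036 CPM. Ferritin genes have near-identical copies, so the Fth1 level is uncertain. Gsn (gene at chr2:35256380-35307892, plus strand) followed with 6055 CPM. Apoe had 5246, 5606, 9122 and 7095 CPM by suffix, and Gsn 6218, 5104, 8052 and 4842 CPM. Secreted inhibitors and binding proteins were also among the 20 highest, namely the protease inhibitor gene Cst3 (4832 CPM), the insulin-like growth factor binding proteins Igfbp7 (4306 CPM) and Igfbp6 (3512 CPM), and the calcification inhibitor Mgp (2996 CPM). The early response genes Junb, Fos and Jun stood at 4116, 4055 and 3235 CPM. Prm2, a spermatid RNA, stood at 5582 CPM.

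Phf7 itself had 29 UMI in 25 mesenchymal barcodes, or 83.7 CPM (56.1 to 120), against 323 CPM in all other kept barcodes. By suffix it was 42.9, 104, 156 and 40.8 CPM in the gate. Spermatid RNA was present in the same barcodes, and its part in the Phf7 level was not tested.

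Across libraries the levels of listed genes varied to different extents. Among 61 listed genes with at least 100 UMI, the highest suffix stood a median of 1.68 times above the lowest. Igf1 was the steadiest of them, with 972, 969, 1101 and 1070 CPM. Gpx3, a secreted glutathione peroxidase, varied by 5.48 times, with 615, 640, 3366 and 1192 CPM. Suffix 3 was the highest for Gpx3, and also for the nuclear receptor Nr4a1 (ratio 4.82), the surface antigen gene Ly6a (3.14) and the RNA-decay factor Zfp36 (2.91). For the elastic fibre gene Mfap4 (3.97) suffix 1 was the highest and suffix 3 the lowest.

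The gate was set beside 3 other gated classes of the same libraries. Smooth muscle-gated barcodes (48, median 3523.5 UMI) had 3 or more of the 6 smooth muscle genes, Leydig-gated barcodes (286, median 7509 UMI) had the 6 Leydig cell genes at 1% of UMI or more with at least 3 of them detected, and endothelial-gated barcodes (29, median 4863 UMI) had 3 or more of Pecam1, Cdh5, Kdr, Tek, Emcn, Esam and Egfl7. All had fewer than 3 of the 5 mesenchymal genes. The 13 barcodes with 3 or more of both the mesenchymal and the smooth muscle genes were in neither class. A difference in genes that vary together with the 5, such as other collagen genes, may therefore be partly built in by the sorting, which was not tested. The smooth muscle-gated class was not pure: 16 of its 48 barcodes also held 3 or more of the 7 endothelial genes, and its summed pericyte markers reached 2197 CPM. A gene with at least 50 UMI over both classes was called when the pooled ratio was 2-fold or more in either direction and kept its sign in each suffix that held 10 or more barcodes of both classes. These were suffixes 1, 2 and 4 for smooth muscle, all 4 for Leydig, and none for endothelial barcodes, where size alone decided.

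Against smooth muscle-gated barcodes, 321 of 2226 genes were called higher in mesenchymal barcodes (14.4%) and 208 lower (9.34%), and the median log2 ratio of all genes was 0.06. Against Leydig-gated barcodes, 1076 of 5798 were called higher (18.6%) and 968 lower (16.7%), with a median of 0.11. Shifting the Leydig ratios by that median gave 971 higher and 1050 lower. Weighting every barcode equally made 42.6% of the Leydig calls higher ones, against 52.6% for summed UMI. Germ cell RNA was among the higher calls. Of 15 spermatid and spermatocyte genes, 9 were called higher, none lower and 3 neither against Leydig-gated barcodes, with sums of 6967 and 2770 CPM. Against smooth muscle-gated barcodes 2 were called higher, none lower and 7 neither. Per barcode, the 4 spermatid RNAs came to 32.6 UMI in mesenchymal, 32.0 in smooth muscle-gated and 41.8 in Leydig-gated barcodes. The higher CPM therefore does not mean more spermatid UMI per barcode. The part of this RNA in the counts was not tested. Without suffix 4 the calls against smooth muscle-gated barcodes were 166 higher and 99 lower among 1225 genes. Without the 16 endothelial-bearing smooth muscle barcodes they were 200 and 91 among 1657 genes. A listed gene seen in 1 class alone had to differ once it reached 50 UMI, so the list counts that follow describe the members and were not tested. The shares of all genes called, given above, are the background for these counts, taken over the members with enough UMI.

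**Figure D2:**
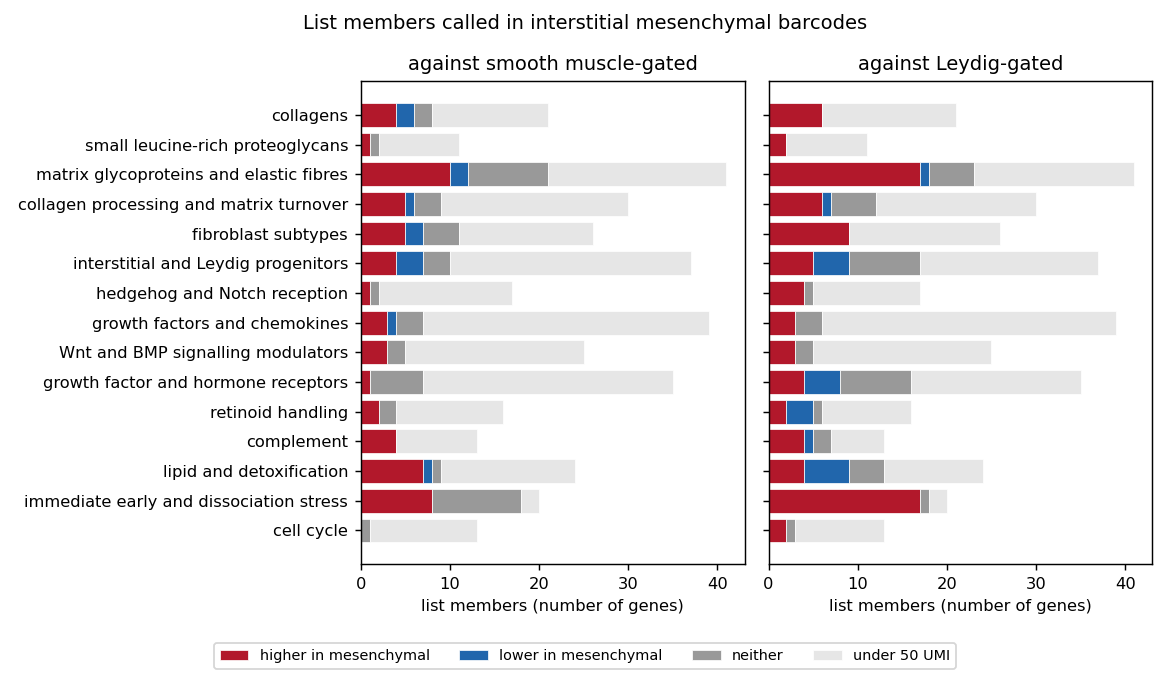
Number of genes of each list called higher, lower or neither in mesenchymal barcodes, against smooth muscle-gated barcodes (left) and Leydig-gated barcodes (right), with genes under 50 UMI in the palest shade. Against Leydig-gated barcodes 17 of 20 immediate early genes and 17 of 41 matrix glycoprotein genes were called higher, beside 18.6% of all genes read. Many listed genes had under 50 UMI.

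Col1a2, Col3a1, Col6a1 and Col15a1 were called higher in mesenchymal than in smooth muscle-gated barcodes, and Col4a2 and Col4a3 lower. Col1a2, the second chain of type I collagen, had 986, 1402, 1506 and 1274 CPM by suffix and 1302 CPM in the pool, against 308 CPM in smooth muscle-gated and 27.5 CPM in Leydig-gated barcodes. Its log2 ratios were 2.08 (1.73 to 2.44) and 5.56 (5.16 to 6.00). Col3a1, type III collagen, stood at 632 CPM, against 134 and 24.0 CPM. Col15a1, of the basement membrane zone, had 219 CPM against 90.9 CPM in smooth muscle-gated barcodes and 0 UMI in Leydig-gated ones. Col4a2 of basement membrane went the other way against smooth muscle, with 254 CPM against 640 CPM in smooth muscle-gated barcodes (log2 -1.33, -1.72 to -0.95) and 19.0 CPM in Leydig-gated ones. Of 21 collagen genes besides Col1a1, 4 were called higher, 2 lower and 2 neither against smooth muscle, with a median log2 ratio of 0.17, and 13 had too few UMI. Against Leydig-gated barcodes 6 were called higher and none lower, with a median of 4.23, and 15 had too few UMI.

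Matrix proteins beyond collagen formed the longest list, and also the one with the most genes called against smooth muscle-gated barcodes. By share of the members that could be read, other lists stood higher, such as complement with 4 of 4. Mgp had 3216, 2578, 3065 and 3013 CPM by suffix, against 126 CPM in smooth muscle-gated and 6.00 CPM in Leydig-gated barcodes, with log2 ratios of 4.57 (4.06 to 5.12) and 8.96 (8.15 to 9.92). All 4 libraries lay above both classes. Igfbp6, which binds mainly insulin-like growth factor 2, had 3512 CPM against 324 and 409 CPM. Igfbp7 at 4306 CPM and Sparc, a collagen-binding matricellular protein, at 2309 CPM were called lower than in smooth muscle-gated barcodes, which had 8709 and 6943 CPM. Of 41 listed matrix glycoproteins, 10 were called higher, 2 lower and 9 neither against smooth muscle (median log2 1.67), and 17, 1 and 5 against Leydig (median 3.10). Bgn, the proteoglycan biglycan, had 921 CPM against 462 CPM in smooth muscle-gated barcodes, a log2 ratio of 0.99 that just missed the 2-fold limit, and 6.50 CPM in Leydig-gated ones. Its relative Ogn had 378 CPM against 67.2 and 46.0 CPM.

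Among matrix-remodelling genes, the aggrecan-cleaving protease Adamts5 had 900.5 CPM, with 743, 952, 945.5 and 931 CPM by suffix. It stood at 59.3 CPM in smooth muscle-gated barcodes and at 0 UMI in Leydig-gated ones, so it was at least 599.9-fold higher against a floor of 3 counts over the class. Serpinf1, a secreted anti-angiogenic serpin, had 710 CPM, against 7.90 CPM from 2 UMI in smooth muscle-gated barcodes (log2 6.49, 4.62 to 9.54) and 30.0 CPM in Leydig-gated ones. Timp3, an inhibitor of matrix proteases, was lower, with 72.2 CPM against 1091 CPM in smooth muscle-gated barcodes. Pcolce, which enhances collagen processing, was higher than in smooth muscle-gated barcodes (554 against 138 CPM) and lower than in Leydig-gated ones (1380 CPM). Of 30 listed genes, 5 were called higher, 1 lower and 3 neither against smooth muscle (median log2 1.05), and 6, 1 and 5 against Leydig (median 0.59).

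**Figure D3:**
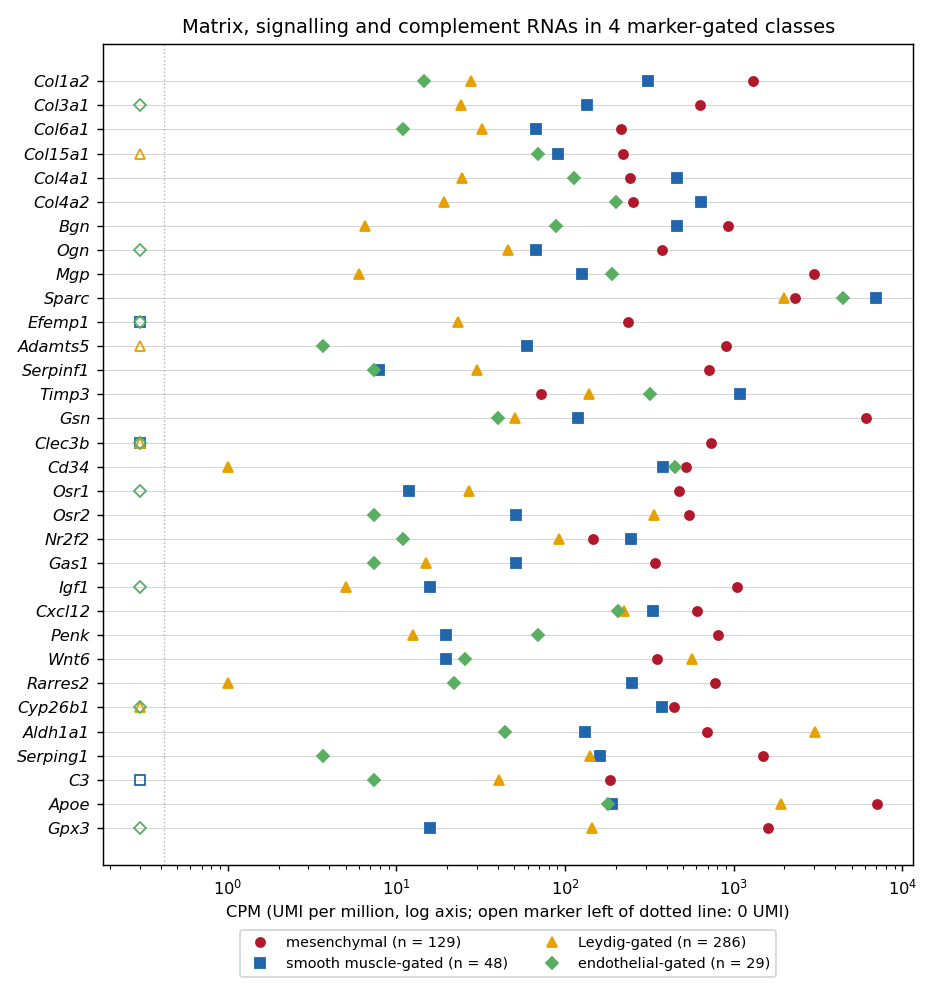
Levels in CPM (log axis) of 32 RNAs in mesenchymal, smooth muscle-gated, Leydig-gated and endothelial-gated barcodes, with open markers left of the dotted line where a class had 0 UMI. Mesenchymal points lie furthest right for Col1a2, Mgp, Gsn and Igf1, and Leydig-gated points for Aldh1a1.

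Genes that mark adventitial and other fibroblasts in mouse tissues were present to different extents. Gsn was 51.1-fold higher than in smooth muscle-gated barcodes, which had 119 CPM, and 119.8-fold higher than in Leydig-gated ones, which had 50.5 CPM. Clec3b, which encodes the plasminogen-binding protein tetranectin, had 443, 1228, 904 and 539 CPM by suffix. It had 0 UMI in all 3 comparison classes, so it was at least 62.1-fold higher than in smooth muscle-gated and at least 490-fold higher than in Leydig-gated barcodes. Cd34, a sialomucin of vessels and fibroblasts, had 520 CPM against 383 CPM in smooth muscle-gated barcodes and was called neither there. Pi16, a marker of adventitial fibroblasts, had 15 UMI in 13 barcodes. Pdgfrb, the pericyte and fibroblast receptor, was lower, with 17.3 CPM against 217 CPM in smooth muscle-gated barcodes. Of 26 listed fibroblast genes, 5 were called higher, 2 lower and 4 neither against smooth muscle (median log2 0.47), and 9 were called higher and none lower against Leydig (median 6.90).

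Single barcodes were compared at equal depth by thinning each to 1000 UMI, which left out 3 mesenchymal, 4 smooth muscle-gated, 18 Leydig-gated and no endothelial-gated barcodes. Igf1 was then seen in 56.3% of mesenchymal barcodes, against 0% of smooth muscle-gated, 0.746% of Leydig-gated and 0% of endothelial-gated ones. Unthinned shares were 77.5%, 8.33%, 2.45% and 0%. Gsn was seen in 87.3%, against 11.4%, 5.22% and 6.90% (unthinned 95.3%, 31.3%, 26.2% and 31.0%). Clec3b was seen in 38.9% of mesenchymal barcodes and in none of the other classes, and in 57.4% of mesenchymal barcodes before thinning. At this depth, a count of 0 allows a share of barcodes with a UMI, not of cells that express the gene, of up to 6.82% of the 44 thinned smooth muscle-gated, 1.12% of the 268 Leydig-gated and 10.3% of the 29 endothelial-gated barcodes.

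Regulators of interstitial and Leydig progenitors were mixed. Osr1, a zinc-finger factor of mesenchyme, had 315, 346, 634 and 506 CPM by suffix, against 11.9 CPM from 3 UMI in smooth muscle-gated barcodes (log2 5.33, 3.76 to 7.62) and 27.0 CPM in Leydig-gated ones. Its paralog Osr2 had 540 CPM against 51.4 and 337 CPM. Vcam1, an adhesion molecule, had 442 CPM, higher than the 39.5 CPM of smooth muscle-gated and lower than the 1335 CPM of Leydig-gated barcodes. Nr2f2, the nuclear receptor COUP-TFII of interstitial progenitors, had 147 CPM against 245 and 92.1 CPM and was called neither in both comparisons. Nr5a1, the steroidogenic master factor, was lower than in Leydig-gated barcodes, with 28.9 against 173 CPM. Of 37 listed genes, 4 were called higher, 3 lower and 3 neither against smooth muscle (median log2 -0.06), and 5, 4 and 8 against Leydig (median 0.68).

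Ligands that act on neighbouring cells included Igf1 as the most abundant. Its 1042 CPM stood against 15.8 CPM in smooth muscle-gated (log2 6.04, 4.67 to 7.93) and 5.003 CPM in Leydig-gated barcodes (log2 7.70, 6.81 to 8.77). Cxcl12, a chemokine for stem and immune cells, had 315, 484, 769 and 694 CPM by suffix, against 332 CPM in smooth muscle-gated barcodes, where it was called neither, and 223 CPM in Leydig-gated ones, where it was called higher. Penk, which encodes the opioid precursor proenkephalin, had 811 CPM against 19.8 and 12.5 CPM. Wnt6 had 352 CPM, above the 19.8 CPM of smooth muscle-gated barcodes and below the 564 CPM of Leydig-gated ones without being called there. Of 39 listed growth factors and chemokines, 3 were called higher, 1 lower and 3 neither against smooth muscle (median log2 0.86), and 3, 0 and 3 against Leydig (median 0.69). Gdnf and most other listed ligands had too few UMI to be read.

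Wnt and BMP modulators were represented by Htra3, at 772, 709, 623 and 596 CPM by suffix, against 11.9 CPM in smooth muscle-gated and 120 CPM in Leydig-gated barcodes. Of the 25 listed, 3 were called higher and 2 neither in each comparison (median log2 1.04 against smooth muscle and 1.38 against Leydig). Gas1, a hedgehog co-receptor, had 341 CPM against 51.4 and 15.01 CPM, and of 17 hedgehog and Notch genes 1 was called higher and 1 neither against smooth muscle (median 1.35), and 4 and 1 against Leydig (median 2.14). Of 35 receptors, 7 could be read against smooth muscle: 1 was called higher and 6 neither (median 0.65), beside 14.4% higher among all genes. Against Leydig, 16 could be read: 4 were called higher, 4 lower and 8 neither (median -0.29), beside 18.6% and 16.7% of all genes. Prlr, the prolactin receptor, had 196 CPM against 0 UMI in smooth muscle-gated and 878 CPM in Leydig-gated barcodes.

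Genes of retinoid handling differed in direction among themselves. Rarres2, the retinoid-responsive gene of the chemoattractant chemerin, had 729, 692, 790 and 833 CPM by suffix, against 249 CPM in smooth muscle-gated barcodes and 1.001 CPM, from 2 UMI, in Leydig-gated ones (log2 9.60, 7.73 to 12.65). Cyp26b1, which degrades retinoic acid, had 442 CPM against 375 CPM in smooth muscle-gated barcodes and 0 UMI in Leydig-gated ones, at least 294-fold higher in the second case. Aldh1a1, which makes retinoic acid, had 693 CPM, called higher than the 130 CPM of smooth muscle-gated barcodes and lower than the 3023 CPM of Leydig-gated ones. Aldh1a3, a further such enzyme with too few UMI for a ratio, had 22 UMI (63.5 CPM) in mesenchymal and 12 UMI (6.004 CPM) in Leydig-gated barcodes. Of 16 listed genes, 2 were called higher and 2 neither against smooth muscle (median log2 0.94), and 2 higher, 3 lower and 1 neither against Leydig (median -1.48).

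Complement genes were called higher where they could be read against smooth muscle-gated barcodes. Serping1, the C1 inhibitor, had 1572, 1851, 1569 and 1217 CPM by suffix and 1492 CPM in the pool, against 162 and 141 CPM. C3, the central component, had 185 CPM against 0 UMI in smooth muscle-gated barcodes, at least 15.6-fold higher, and 40.5 CPM in Leydig-gated ones. C2 had 196 CPM against 3.95 CPM from 1 UMI and 215 CPM. Of 13 listed genes, 4 were called higher against smooth muscle (median log2 3.58), and 4 higher, 1 lower and 2 neither against Leydig (median 1.47).

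Among genes of lipid handling and detoxification, Apoe had 7036 CPM against 190 CPM in smooth muscle-gated and 1919 CPM in Leydig-gated barcodes. Gpx3 was 100-fold higher than in smooth muscle-gated barcodes, with 1587 against 15.8 CPM, although it varied most over suffixes of the 61 listed genes above. Gstm1, a glutathione transferase, was lower than in Leydig-gated barcodes, with 3051 against 11374 CPM. Of 24 listed genes, 7 were called higher, 1 lower and 1 neither against smooth muscle (median log2 1.502), and 4, 5 and 4 against Leydig (median -0.85). Of 13 cell cycle genes 1 could be read against smooth muscle and was called neither, and 2 were called higher against Leydig.

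Of the 12 endothelial markers 7 were called lower than in smooth muscle-gated barcodes, as were 4 of the 8 pericyte markers. Cldn5, a tight junction gene of endothelium, had 20.2 CPM against 2462 CPM, and Rgs5, a pericyte gene, had 0 UMI against 774 CPM, at least 89.4-fold lower. Tm4sf1, Esam, Cd93, Egfl7, Vwf and Mmrn2, all known from endothelium, were in the same 12 lowest genes, with 1 or 2 UMI each in the mesenchymal gate. Summed endothelial markers were 113 CPM in the gate, against 5658 CPM in smooth muscle-gated barcodes, and their part in these ratios was not tested. Of the genes highest against that class, Entpd2, an enzyme that hydrolyses extracellular ATP, had 137 UMI against 1 (log2 6.64, 4.14 to 11.96). Agt, angiotensinogen, had 260 CPM against 3.95 CPM from 1 UMI, and Maf, a leucine zipper factor, had 164.5 CPM against the same level.

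The 12 lowest ratios against Leydig-gated barcodes belonged to genes of several roles, among them Ces1d, Bpifb5, 9230104L09Rik, Tesc, Fads2 and Sult1e1. Hsd17b3, which makes testosterone, had 2 UMI in the gate (5.77 CPM) against 908 CPM. Ptgds, a prostaglandin synthase, had 95.2 against 13685 CPM, and Lcn2, the iron-binding lipocalin, 127 against 16419 CPM. The kallikrein genes Klk1b22, Klk1b27 and Klk1b24 were also among the 12 lowest, but they belong to a family of near-identical genes and their levels are uncertain. At the other end stood Entpd2 again, with 1 UMI in Leydig-gated barcodes (log2 9.63, 7.12 to 14.94), and Id3, an inhibitor of helix-loop-helix factors, with 1645 against 2.50 CPM. Olfml3, Pltp, Slc38a5 and Ramp2 had 60 to 111 UMI against 1 UMI each.

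Against endothelial-gated barcodes, 382 of 2428 genes were higher by at least 2-fold (15.7%) and 621 lower (25.6%), and all genes had a median of -0.19 on the log2 scale. Shifting by that median gave 470 and 527. The endothelial-gated class was rich in germ cell RNA. Of the 15 spermatid and spermatocyte genes, none were called higher, 9 lower and 2 neither. They summed to 6967 CPM in the gate and 14676 CPM in endothelial-gated barcodes (1840 to 24404 by suffix). The part of this RNA in the endothelial comparison was not tested. A single endothelial-gated barcode held 120453 UMI, or 44.1% of the class, and without it 382 were higher and 198 lower among 1818 genes. Without suffix 4 there were 241 higher and 144 lower among 1202 genes. Higher calls were 38.1% of all calls with summed UMI and 66.1% with every barcode weighted equally. Serping1 (3.66 CPM from 1 UMI in endothelial-gated barcodes; log2 8.67, 6.19 to 13.98), Igfbp6 (22.0 CPM; log2 7.32, 6.20 to 8.77) and Gsn (40.2 CPM; log2 7.23, 6.39 to 8.24) were among the highest. Meg3, an imprinted non-coding RNA, had 1120 CPM against 10.98 CPM. Cldn5 was among the lowest, with 20.2 against 2923 CPM.

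Called higher than in all 3 classes were 94 genes of 1918 that could be read in each comparison. By level they began with Apoe, Gsn, Junb, Fos, Igfbp6, Jun and Mgp, and they held Gpx3, Serping1, Col1a2, Igf1, Adamts5, Penk, Rarres2, Clec3b, Serpinf1, Htra3, Col3a1, Osr1 and Entpd2.

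Immediate early genes, which fibroblasts and many other cells switch on within minutes of a stimulus and which enzymatic dissociation can raise, stood higher in mesenchymal barcodes than in the other classes in summed level. The 20 listed genes summed to 27052 CPM in mesenchymal barcodes (20741, 22025, 33798 and 27728 CPM by suffix), against 12202 CPM in smooth muscle-gated, 5498 CPM in Leydig-gated and 9579 CPM in endothelial-gated barcodes. Fos, a subunit of the AP-1 factor, had 3688, 3357, 5050 and 3813 CPM by suffix, against 1743, 827 and 1270 CPM in the 3 classes. Klf4, a zinc-finger factor, had 1853 CPM, against 427, 33.5 and 465 CPM. Of the 20 genes, 8 were called higher and 10 neither against smooth muscle (median log2 0.95), and 17 higher and 1 neither against Leydig (median 2.189). Hspa1a has a near-identical copy, Hspa1b, so both are uncertain. All samples were digested with trypsin, collagenase A and DNase I, and the part of the digestion in these levels was not tested.

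**Figure D4:**
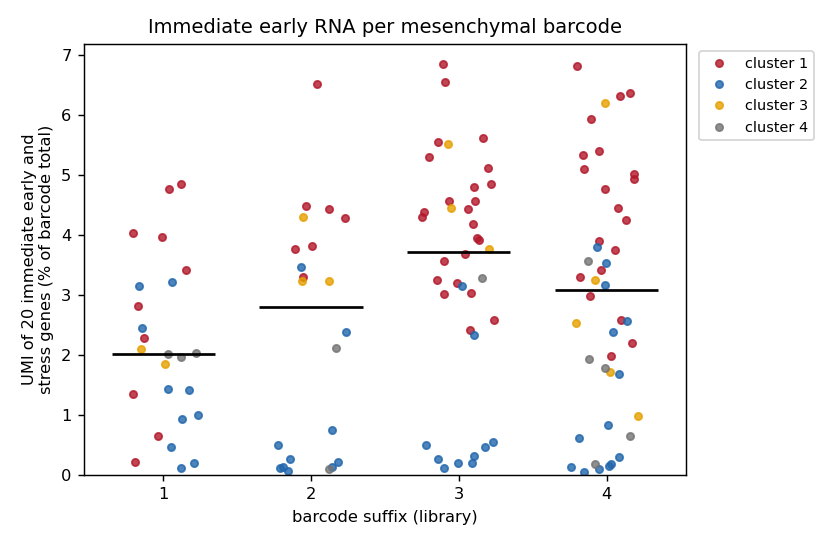
Share of each mesenchymal barcode's UMI that fell on the 20 immediate early and stress genes (vertical axis, percent), by library suffix, with 1 point per barcode coloured by cluster and a bar at each library's median. The shares run from 0.0392% to 6.85%, and most of the lowest points belong to cluster 2.

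This RNA was unevenly spread over single barcodes. The share per barcode ran from 0.0392% to 6.85% with a median of 3.14%, and the medians of suffixes 1, 2, 3 and 4 were 2.02%, 2.81%, 3.72% and 3.08%. The median was 0.631% in smooth muscle-gated, 0.396% in Leydig-gated and 1.69% in endothelial-gated barcodes. Fos was not detected in 23 mesenchymal barcodes, 3, 7, 6 and 7 of suffixes 1 to 4. At 1000 UMI, Fos was seen in 76.2% of mesenchymal barcodes, against 56.8%, 44.0% and 75.9% in the other 3 classes (unthinned 82.2%, 66.7%, 66.1% and 89.7%), so the share in endothelial-gated barcodes was about as high.

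Clustering within the gate gave 4 clusters, which are called by number. It left out the 5 gate genes, the 6 smooth muscle genes, the 6 Leydig cell genes, the 4 spermatid RNAs and mitochondrial genes. Cluster 1 held 61 barcodes (10, 7, 24 and 20 by suffix), cluster 2 held 44 (10, 10, 10 and 14), cluster 3 held 13 (2, 3, 3 and 5) and cluster 4 held 11 (3, 2, 1 and 5). The genes that lead a cluster also built it, so their values are a description.

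Cluster 1 carried most of the immediate early RNA and was led by Gatm, Gpx3, Gas1, Id1, Atf3, Gm26532, Socs3 and Ppp1r15a. Its immediate early list summed to 41377 CPM, against 11127 CPM in cluster 2, and Fos was missing from 1 of its 61 barcodes, against 19 of 44 in cluster 2. Igf1 stood at 1728, 1798, 1340 and 1592 CPM in cluster 1 by suffix, against 701, 973, 541 and 702 CPM in cluster 2. Gpx3 stood at 1047, 2374, 4442 and 2102 CPM, against 453, 122, 500 and 432 CPM. In all 4 libraries both genes were higher in cluster 1, but the clusters were built from all libraries together, so this is a description too. Gatm had 0 CPM in cluster 1 in suffix 2, against 40.5 CPM in cluster 2, and was higher in cluster 1 in the other 3.

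Cluster 2 was led by Pltp, a phospholipid transfer protein, the CCN family gene Wisp2, the elastic fibre genes Mfap5, Mfap4 and Fbln5, the calcium-binding S100a6, Fxyd6 and Selenbp1. Igfbp6 stood at 5127 CPM there, against 2933 CPM in cluster 1, and Mgp at 3955 against 2632 CPM. Mfap4 stood at 1525, 243, 416 and 1350 CPM in cluster 2 by suffix, against 157, 144, 84.8 and 149 CPM in cluster 1. Mfap5 was lower in cluster 2 in suffix 2, with 81.1 against 144 CPM, and higher in the other 3. Clustering again without the immediate early genes gave 3 clusters, which kept 56 of the 61 and 38 of the 44 barcodes together, and put 11 of the 13 of cluster 3 with cluster 2. At resolution 1 in place of 0.5 there were 5 clusters, and the largest shares kept together were 33 of 61 and 37 of 44.

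Cluster 3 stood closest to Leydig cells in its leading genes, 1110008P14Rik, Tmem176b, Fdx1, Akr1cl, Tst, Mgarp, Me1 and Fabp3. Fdx1 encodes the electron carrier of steroid hydroxylases. All 50 Hsd3b6 UMI of the gate were in this cluster, in 3 barcodes, and Hsd3b6 has a near-identical copy in Hsd3b1. Its 6 Leydig gate genes made up 0.202% of UMI, but 62 of those 103 UMI lay in 1 barcode at 0.961%, just under the 1% limit, and 7 of the 13 barcodes had none. The other 12 barcodes stood at 0.0921%. Vcam1 stood at 1315 CPM and Prlr at 550 CPM, against 359 and 158 CPM in cluster 1, while Gsn stood at 765 CPM against 7003 CPM and Clec3b had 0 UMI against 769 CPM. Dcn was 3572 CPM, against 12100 CPM in cluster 1.

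Cluster 4 was led by Spz1, 1700029H14Rik, Sh3rf2, Tppp2, Car2, 1700016H13Rik, Dnajb8 and Atl3, of which Spz1 is a transcription factor of male germ cells. The 4 spermatid RNAs made up 3.89% of its UMI, against 0.800% in cluster 1. The same 3 barcodes of suffix 1 held 1204 of its 1805 such UMI, and the other 8 stood at 2.01%. In the whole cluster the 15 other spermatid and spermatocyte genes gave 14320 against 5709 CPM. Dcn stood at 5814 CPM. Whether these barcodes hold more than 1 cell or free RNA was not tested.

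**Figure D5:**
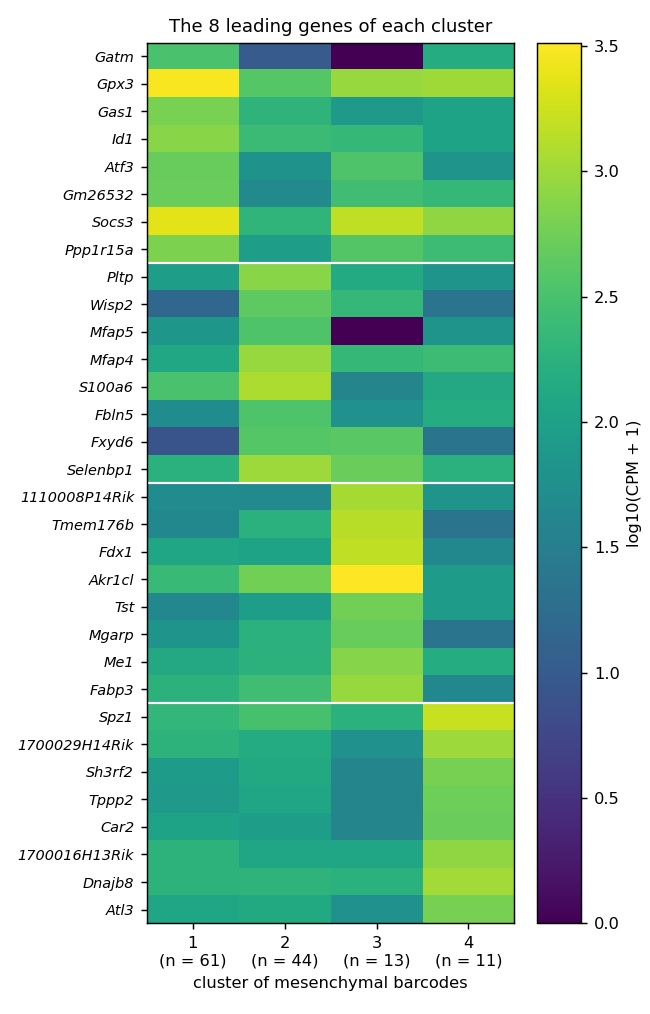
Level, as log10(CPM + 1), of the 8 leading genes of each of the 4 clusters (columns, with the number of barcodes). Bright blocks on the diagonal are the genes that built the clusters, and Akr1cl in cluster 3, at 3258 CPM, is among the brightest cells.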

How the data were processed

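The authors deposited raw UMI counts per gene and barcode, made with Cell Ranger 3.0.2 per the file headers, and the submitters' processing notes name bcl2fastq 2.19.1.403 and the build mm10. The matrix held 28692 genes, 32273 barcodes and 190744950 UMI. From these counts the gates were applied, UMI were summed over each class and divided by its total to give CPM, and genes with at least 50 UMI over both classes were compared. Genes that define either class of a comparison were left out of it. Where a class had 0 UMI, 3 counts over the class were used as the floor. Intervals are exact Poisson for levels, Clopper-Pearson for shares and conditional binomial for ratios, from scipy 1.17.1. The planned test between genotypes was not run, since no label maps suffixes to samples. No doublet caller was run, so doublets may remain.

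Named were the 12 highest and 12 lowest ratios per comparison, the 20 most abundant genes, the 4 most abundant members of each list, the 5 members that varied most over suffixes, and the 8 leading genes per cluster; of these the text describes the most abundant and the most different, and a few further list members were picked after their values were seen. The gate members and the gene lists were chosen with earlier results of these data known. C4a, Ccl19, Ltbp4 and Vegfd of the 490 listed genes were not used. Clusters came from scanpy 1.11.5 and leidenalg 0.10.2, on 1000 variable genes, 15 components, 15 neighbours and resolution 0.5. The ratio step was tested on simulated data. Gene positions came from GENCODE M21 (28339 of 28692 IDs matched) and promoters from RefSeq.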

Additional observations from a re-analysis of the deposited data

Results flagged for a closer look

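Of 55 levels and shares checked over the 4 libraries, 8 had 1 library far from the other 3 by Dixon's criterion at 95%. Chance flags about 1 in 20 such sets, and the 8 are not separate items, since 3 of them measure the same spermatid RNA. The libraries are not assigned to genotypes.

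Spermatid RNA stood apart in suffix 1. The 4 spermatid RNAs were 2.58% of the mesenchymal UMI there, or 25844 CPM. Of 25 barcodes, 3 held 1204 of the 1808 UMI, and the other 22 stood at 1.13%. Prm2 alone, a protamine, reached 12994 CPM, against 3398 to 4152 CPM in the other 3 libraries. The ribosomal protein gene Rpl13 and the ubiquitin gene Ubb were lowest in suffix 1, with 2416 and 2287 CPM, and have related copies elsewhere in the genome. The pericyte markers summed to 57.2 CPM in suffix 1, from few UMI.

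Cst3 reached 6644 CPM in suffix 2, against 4260 to 4630 CPM in the others. The endothelial markers summed to 196 CPM in suffix 4, where all 7 UMI of Cldn5, a tight junction gene, lay in 1 barcode.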

How the results depend on the processing

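No ratio of a named gene changed direction under the alternatives run, but this check could hardly have failed. The genes followed were those with the highest and lowest ratios of each comparison. The weakest of these ratios, for Car4 against endothelial-gated barcodes, had a log2 of -5.21. A gene under the UMI minimum of a setting gave no ratio there. The check therefore does not cover genes with smaller differences. Of 1273 named gene ratios read, 1271 kept their call. The exceptions were still at least 2-fold but no longer went the same way in each suffix used. Sult1e1 was 1 of them, against Leydig (log2 -2.21 with 2 of the 5 genes required). C130074G19Rik was the other, against smooth muscle (-6.62 with 4 of 6 smooth muscle genes required).

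Counts of called genes depended on the settings, as did the number of genes tested, and the causes were not tested. The main setting tested 2226 genes against smooth muscle, 5798 against Leydig and 2428 against endothelial barcodes. Requiring 2 of the 5 genes gave a share of 0.784% of kept barcodes. Of 3913 genes, 772 were then higher and 320 lower against smooth muscle. Against Leydig 1676 of 6716 were higher, and against endothelial barcodes 716 of 3898. Requiring 4 gave 0.140%, with 169 of 1328 genes higher against smooth muscle and 190 of 1622 against endothelial barcodes. At 1000 genes per barcode the share was 0.648%, although the gate held 117 barcodes in place of 129, since fewer barcodes were kept. A minimum of 20 UMI, which tests more genes, gave 686 and 559 of 5271 (smooth muscle), 1714 higher of 9080 (Leydig), and 1049 and 1174 of 5235 (endothelial). A minimum of 200 UMI, which tests fewer, gave 68 and 35 of 418, 273 and 501 of 1886, and 78 and 108 of 476. Weighting barcodes equally, with the genes of the main setting, gave 203 higher (smooth muscle), 675 higher (Leydig) and 212 lower (endothelial).

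Without the deepest 10% of barcodes there were 197 higher of 1702 genes against smooth muscle and 183 lower of 1416 against endothelial barcodes. Leaving out each suffix in turn gave 166 to 339 higher and 99 to 218 lower (smooth muscle). For endothelial barcodes it gave 241 to 409 and 144 to 667, and all were lowest without suffix 4. Genes tested ran from 1225 to 1807 and from 1202 to 2075, and were also fewest without suffix 4. Chosen after seeing the data were direction in all suffixes (81 lower of 2428, endothelial) and smooth muscle barcodes without endothelial genes (200 and 91 of 1657). The class without its deepest endothelial barcode (198 lower of 1818) was also chosen then. No paired analysis was possible because the barcodes carry no sample, although the labels number replicates in both genotypes. Depth limited the lists: most listed signalling genes had under 50 UMI.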
